A study of Mus musculus with 2 samples.

Results

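The 10 genes described here encode tubulins, microtubule partners, growth-associated proteins and marker proteins of young neurons: Dcx, Tubb3, Tubb2b, Tuba1a, Stmn2, Gap43, Map1b, Marcksl1, Igfbpl1 and Calb2. They were chosen by name, with earlier results of these data known, and all 10 have a column among the 17592 genes of the deposited expression table. The study profiled single cells of the mouse dentate gyrus, the hippocampal region in which granule neurons are born in adult life. Each age had 1 library, 1 from young C57BL/6 mice aged 3 months and 1 from old C57BL/6 mice aged 16 months, and neither carries a labelled genotype or treatment. Cells were freed with papain, sorted as negative for propidium iodide (a dye that enters dead cells) and sequenced as droplet libraries that read the 3′ end of each transcript. The number of animals behind each library is not given in the sources used here, and papain and the live-cell sort set which cells could be seen.

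Newborn neurons rebuild their cytoskeleton while they migrate and send out an axon and dendrites. Microtubules made from α- and β-tubulin form the core of these processes, proteins such as doublecortin and MAP1B bind and stabilise them, and stathmins take tubulin dimers out of the pool that can assemble. At the growth cone, the moving tip of an axon, GAP-43 and the MARCKS family link the membrane to actin. In the dentate gyrus doublecortin marks neuroblasts and immature granule neurons, and calretinin, the product of Calb2, marks a short stage just after the last division.

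Cells were split by the share of their unique molecular identifiers (UMIs, each 1 counted transcript) that came from mitochondrial genes. Those at or above 1% are called brain-class cells and numbered 1120 of 2463 in the young table and 1161 of 1430 in the old table. The remaining 1343 and 269 are called low-mitochondrial cells. Near that limit, 29 young cells had between 0.5% and 1% and 77 between 1% and 2%. Of the 269 old low-mitochondrial cells, 164 lay between 0.5% and 1%, with a median of 1603 UMIs over all of them, so the limit cuts through that group. Median depth was 5270.5 UMIs per young brain-class cell and 7180 per young low-mitochondrial cell. The old and young tables share 1401 cell barcodes, 1082 of them in brain-class cells of both, and all 269 old low-mitochondrial cells have a barcode that also occurs in the young table. The tables are therefore not separate samples of 2 ages, and values from both are given side by side without a test. Levels below are summed UMIs of a gene per 10000 summed UMIs of a group of cells, with exact Poisson 95% intervals. The intervals cover counting error only, not the spread between cells or between animals.

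Brain-class cells fell into clusters that were named from marker genes, with the 10 members left out of both the clustering and the markers. The young table held 49 neuroblast-like cells (median 9052 UMIs), in which 11 of the 12 neuroblast markers passed, among them Sox11, Sox4, Neurod1 and Eomes. It also held 9 Cajal-Retzius-like cells, an early-born neuron type that secretes reelin, led by Reln and Ndnf, with a median of 4311 UMIs. The main other classes were 377 microglia-like, 280 astrocyte-like, 128 endothelial-like, 81 mature oligodendrocyte-like, 67 pericyte-like and 47 oligodendrocyte precursor-like cells. No cluster qualified as granule neuron-like, so the members were not measured in a class of mature granule neurons here. Granule neuron markers summed to 4.98 in the neuroblast-like cells, from 0 to 48.1 in single cells. Scrublet, a doublet caller, marked 37 young cells, none of them neuroblast-like or Cajal-Retzius-like, and doublets were kept. Astrocyte markers summed to 8.71 in the neuroblast-like cells (8 of 8 read, from 0 to 66.6 in single cells) and oligodendrocyte precursor markers to 0.589, with Pdgfra, Neu4 and Lhfpl3 at 0. Their part in the member levels was not tested.

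Of the 10 members, 8 had their highest level in neuroblast-like cells and 2, Gap43 and Map1b, in Cajal-Retzius-like cells. At a clustering resolution of 0.5 or a mitochondrial limit of 2% the 9 Cajal-Retzius-like cells joined the neuroblast-like class, and all 10 were highest there. All 10 were at least 4-fold higher in the 49 neuroblast-like cells than in the other 1071 young brain-class cells, against 2.58% of the 13512 genes tested (348 genes). This ratio was taken with 0.1 added to each level. With 1 added, 8 of the 10 passed, without Gap43 (log2 0.94) and Map1b (log2 1.96), and so did 52 genes of all. The log2 ratio had a median of 4.50 over the members, which were chosen with earlier results of these data known, and -0.01 over all genes tested. The name given to the gene group fits these levels in part: Tuba1a, Tubb2b and Marcksl1 were also read throughout one or more glial or immune classes. Together the members made up 2.01% of the UMIs of neuroblast-like cells, 0.393% of those of oligodendrocyte precursor-like cells and 0.0831% of those of microglia-like cells.

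**Figure D1:**
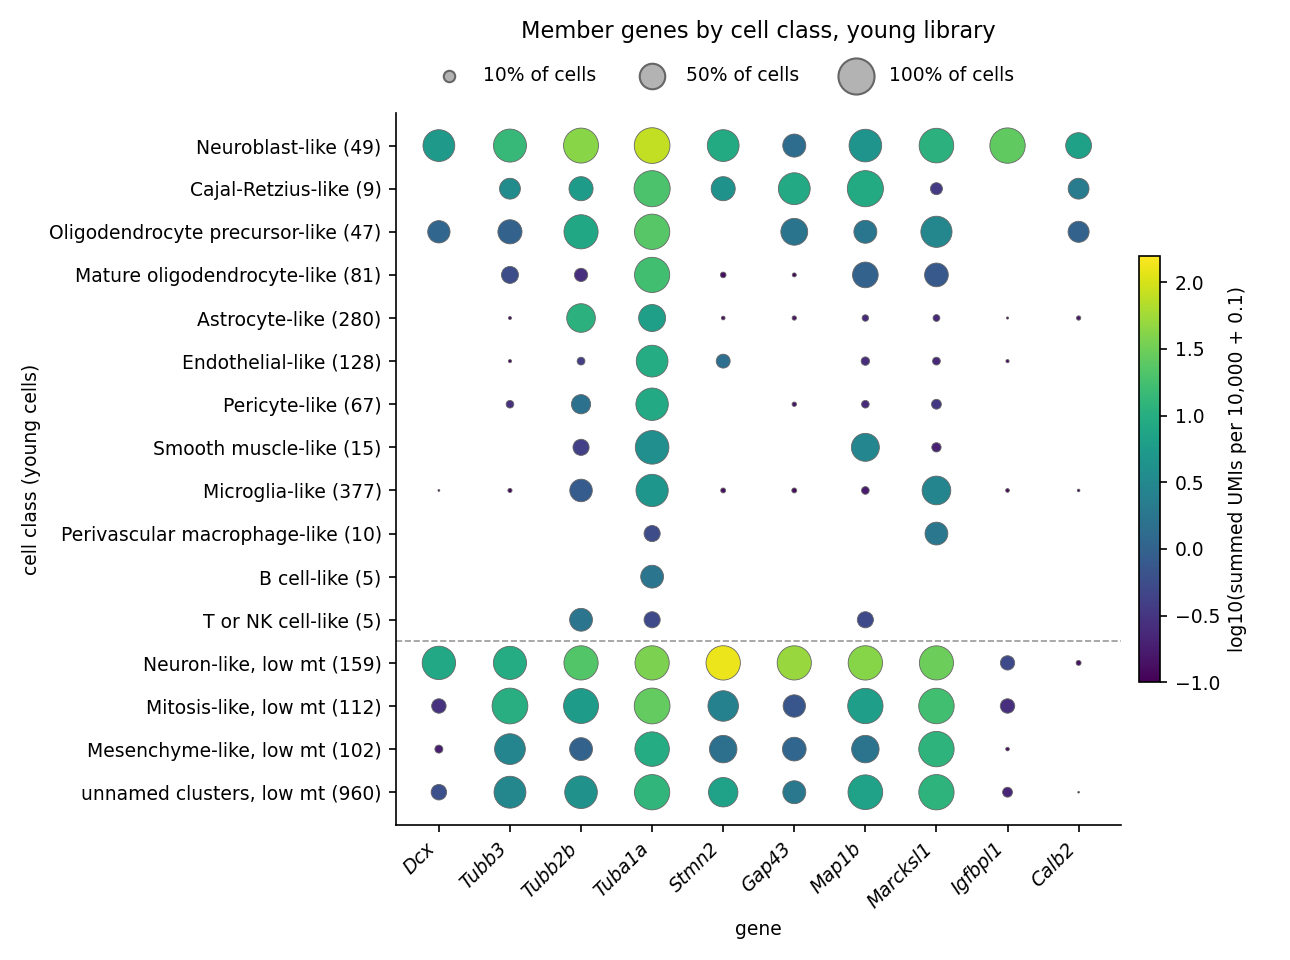
Level of each member (UMIs per 10000, colour, log scale) and share of cells with at least 1 UMI (dot size) in the named brain classes and the groups of low-mitochondrial cells of the young table. Igfbpl1 and Dcx are high in few classes, and Tuba1a has UMIs in every class.

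The genes lie on 7 chromosomes in the GRCm38 assembly with GENCODE M21 gene models, and all are protein coding. Dcx spans chrX:143855842-143933311, Tubb3 chr8:123411424-123422015, Tubb2b chr13:34126748-34130466, Tuba1a chr15:98949837-98953703 and Stmn2 chr3:8509360-8561606. Gap43 spans chr16:42248442-42340651, Map1b chr13:99421446-99516540, Marcksl1 chr4:129513581-129515985, Igfbpl1 chr4:45809468-45826923 and Calb2 chr8:110137502-110168210. The end of the Tuba1a transcript is shared with close copies: 58.1% of the 31-base words in its last 500 bases also occur in another gene, among them Tuba1b and Tuba1c. Reads from these copies could be confused, so Tuba1a values are uncertain in that respect. The share was 1.81% for Tubb3, 1.50% for Dcx and 0 for the other 7 members.

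RefSeq promoters of the same build were matched for 5 members (Dcx with 2 start sites, Tubb3, Tuba1a, Map1b and Marcksl1). Dcx, Map1b and Marcksl1 are shown because they differ in how many CG dinucleotides they hold. Capitals mark CG. Each run is upstream sequence, read 5′ to 3′ on the strand of the gene.
Dcx, chrX:143933312-143933469, minus strand: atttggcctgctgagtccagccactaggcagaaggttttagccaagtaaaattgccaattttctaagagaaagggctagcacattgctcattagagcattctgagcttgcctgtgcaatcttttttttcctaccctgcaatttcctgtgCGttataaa
Map1b, chr13:99516603-99516852, minus strand: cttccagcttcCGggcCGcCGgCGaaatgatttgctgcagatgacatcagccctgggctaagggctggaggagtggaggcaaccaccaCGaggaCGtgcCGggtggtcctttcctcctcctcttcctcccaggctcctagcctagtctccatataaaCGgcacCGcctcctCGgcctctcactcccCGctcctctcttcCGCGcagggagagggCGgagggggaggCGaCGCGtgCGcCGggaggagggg
Marcksl1, chr4:129513331-129513580, plus strand: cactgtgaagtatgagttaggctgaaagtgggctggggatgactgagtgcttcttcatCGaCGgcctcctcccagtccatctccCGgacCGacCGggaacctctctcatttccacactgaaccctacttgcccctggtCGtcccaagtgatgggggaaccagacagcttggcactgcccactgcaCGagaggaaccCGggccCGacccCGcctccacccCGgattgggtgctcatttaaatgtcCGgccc
Over the whole 250-base windows, CG occurred 3 times at each Dcx start, 12 times at Marcksl1, 11 at Tuba1a, 19 at Map1b and 21 at Tubb3. The median over 32851 promoter windows was 6, with quartiles of 2 and 16. GC content was 44.8% and 41.6% at the Dcx starts and between 56.8% and 68.0% at the other 4 genes, against a median of 52.4%. The letters TATAA, searched on both strands, were present at Dcx, Tubb3, Tuba1a and Map1b and in 22.8% of all windows. The E-box letters CANNTG were present at Tuba1a, Map1b and Marcksl1 and in 66.2% of all windows. These are descriptions of letters in a window and were not tested against the levels.

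Among the tubulins, Tubb3, the β-tubulin used as a general neuronal marker, had 569 UMIs in young neuroblast-like cells, a level of 14.0 (12.8 to 15.2), and 587 UMIs and 14.5 in the old table. It had a UMI in 83.7% of the cells (41 of 49), against 1.33% of the microglia-like cells (median 7898 UMIs), immune cells taken as the background class for neuronal transcripts. Cajal-Retzius-like cells came next at 3.35 (1.78 to 5.73), then oligodendrocyte precursor-like cells at 0.882 (0.599 to 1.25). The neuroblast-like level was 90.0 times (72.1 to 113) that of all other brain-class cells, and no interval of another class reached it.

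Tubb2b, a β-tubulin of developing neurons and glia, stood at 42.7 (40.7 to 44.7) in young and 44.4 in old neuroblast-like cells. Its second-highest class was astrocyte-like cells at 10.97 (10.3 to 11.7), above oligodendrocyte precursor-like cells at 7.94. Cajal-Retzius-like cells at 5.67 (3.55 to 8.58) did not differ from the precursors beyond the intervals. Astrocyte-like cells were shallow (median 2051 UMIs). With cells thinned to 1000 UMIs, Tubb2b would be seen in 84.4% of neuroblast-like and 48.3% of astrocyte-like cells. Thinned shares, here and below, leave out cells with fewer UMIs than that. The unthinned shares, over all cells, were 93.9% and 62.9%. Oligodendrocyte precursor-like cells would show it in 49.8% when thinned, close to the astrocyte-like share. Within the astrocyte-like class it varied by cluster, at 14.3 in 119 cells and 3.82 in the other 161.

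Tuba1a, the main α-tubulin of migrating neurons, reached 81.6 (78.9 to 84.4) in young and 89.6 in old neuroblast-like cells, with a UMI in 48 of the 49 young cells. It was broad. Oligodendrocyte precursor-like cells stood at 22.3 (20.8 to 23.9), Cajal-Retzius-like cells at 19.6 (15.4 to 24.5) and mature oligodendrocyte-like cells at 17.1 (16.2 to 18.1), and the Cajal-Retzius-like interval overlapped both of the others. Microglia-like cells were lower at 4.65 but had a UMI in 79.8% of cells. The neuroblast-like level was 10.4 times (9.92 to 10.8) that of the other cells.

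Dcx, which encodes the microtubule-bundling protein doublecortin, had 207 UMIs in young neuroblast-like cells, a level of 5.08 (4.41 to 5.82), and 206 UMIs and 5.08 in the old table. Single cells ranged from 0 to 19.2 UMIs per 10000 with a median of 4.69, and 38 of 49 cells (77.6%) had a UMI. Only 1 UMI was read in the 377 microglia-like cells (0.265% of cells), and none in astrocyte-like, endothelial-like, pericyte-like or mature oligodendrocyte-like cells. The 9 Cajal-Retzius-like cells had none either, which allows up to 33.3% of cells with a UMI. Such limits bound detection at the depth of these cells (median 4311 UMIs here), not the share of cells that express the gene.

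The class with the second-highest Dcx level was the oligodendrocyte precursor-like cells, the glial progenitors that give rise to myelinating cells. They stood at 1.02 (0.717 to 1.42), with 36 UMIs in 18 of 47 cells (38.3%) at a median of 8009 UMIs, and at 0.726 in the old table. These cells are as deep as the microglia-like cells, and thinned to 1000 UMIs they would show Dcx in 9.52%. All 18 of the Dcx-positive precursors had a UMI of the precursor markers Pdgfra and Cspg4, 17 had Gpr17, and Pdgfra stood at 12.9 against 12.5 in the 29 Dcx-negative ones. Calb2 had a UMI in 10 of the 18 and in 6 of the 29. The neuroblast genes Eomes and Neurod1 and the members Stmn2 and Igfbpl1 had no UMI in any of the 47 cells, which allows up to 6.38% of cells with a UMI at this depth. Without the 9 precursor-like cells called doublets, Dcx was at 1.12 in 16 of 38 cells.

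Map1b, a microtubule-associated protein of growing axons, was highest in Cajal-Retzius-like cells at 8.76 (6.07 to 12.2), with a UMI in all 9 cells, and at 8.94 in the old table. Neuroblast-like cells followed at 4.49 (3.86 to 5.19) in both tables, and 1 young cell reached 37.1. Smooth muscle-like cells, the contractile cells of vessel walls, stood at 2.88 (1.92 to 4.17) with a UMI in 9 of 15 cells, an interval that overlaps that of neuroblast-like cells. In oligodendrocyte precursor-like cells the level of 1.71 (1.30 to 2.20) rested in part on cells called doublets and was 0.662 without them. Microglia-like cells had a UMI in 4.51% of cells.

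Stmn2, a stathmin of growing neurites that binds tubulin dimers, had 356 UMIs and a level of 8.74 (7.85 to 9.69) in young neuroblast-like cells and 9.10 in old ones. Its highest single cell stood at 44.5, and 77.6% of the cells had a UMI against 1.86% of microglia-like cells. Cajal-Retzius-like cells stood at 4.12 (2.36 to 6.70). The next class was vascular: endothelial-like cells, which line blood vessels, had 59 UMIs and a level of 1.29 (0.982 to 1.66), with 67 UMIs and 1.32 in the old table. These UMIs were unevenly spread over the 2 endothelial clusters. A cluster of 27 cells led by Ly6c1, Ly6a, Tm4sf1, Gkn3 and Mgp held 44 of them (level 3.67, 12 cells with a UMI), and the other 101 cells held 15 (level 0.444, 7 cells). Tubb2b, Dcx, Tubb3, Gap43, Igfbpl1 and Calb2 had no UMI in the young cluster of 27 cells, which allows up to 11.1% of cells with a UMI of each at this depth.

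Gap43, the growth-cone protein, was highest outside the neuroblasts. It had 33 UMIs in the 9 Cajal-Retzius-like cells, a level of 8.50 (5.85 to 11.9), with a UMI in 7 of them, and 8.02 in the old table. Neuroblast-like cells stood at only 1.25 (0.932 to 1.65) from 51 UMIs, with a UMI in 20 of 49 cells. Oligodendrocyte precursor-like cells at 1.62 (1.23 to 2.10) did not differ from them beyond the intervals. The old table gave 1.21 and 1.69 for these classes. Gap43 had a UMI in 1.86% of microglia-like cells, and its ratio of neuroblast-like to all other cells was 7.21 (5.05 to 10.2).

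Marcksl1, a MARCKS relative that binds actin and the plasma membrane, stood at 10.9 (9.88 to 11.9) in young and 10.8 in old neuroblast-like cells. It was second in oligodendrocyte precursor-like cells at 2.90 (2.37 to 3.52) and in microglia-like cells at 2.77 (2.58 to 2.96), which overlapped. Microglia-like cells had a Marcksl1 UMI in 63.1% of cells, and 21.4% if thinned to 1000 UMIs, where astrocyte-like cells would have 0.685% and endothelial-like cells 1.57%. For this gene the astrocyte-like share, 3.57% unthinned, was set beside it as a background after the values were seen. Astrocyte-like cells are shallower (median 2051 UMIs) than neuroblast-like cells (9052), so this share may be too low for that depth. The Marcksl1 ratio of neuroblast-like to all other cells was 6.37 (5.69 to 7.13). It lay below those of the other members except Gap43, whose interval overlaps it.

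Igfbpl1, a secreted relative of the insulin-like growth factor binding proteins, was the most restricted member. Young neuroblast-like cells had 1072 UMIs, a level of 26.3 (24.8 to 27.9), in 47 of 49 cells, and old ones a level of 27.5. The other 1071 young brain-class cells had 6 UMIs in 6 cells (0.560%), 4 of them microglia-like. The ratio of counts was 2627 (1203 to 7175), and with 0.1 added to both levels the gene ranked 1 of 13512. In the old table microglia-like cells had 15 Igfbpl1 UMIs, a level of 0.0456, compared with 0.0135 in the young table. None was read in Cajal-Retzius-like cells.

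Calb2, which encodes the calcium buffer calretinin, had 264 UMIs in young neuroblast-like cells, a level of 6.48 (5.72 to 7.31), and 6.91 in the old table. It was unevenly spread: 25 of 49 cells (51.0%) had a UMI, the median cell stood at 0.726 and the highest at 42.7. Cajal-Retzius-like cells at 2.06 (0.890 to 4.06) and oligodendrocyte precursor-like cells at 0.882 (0.599 to 1.25) followed, with overlapping intervals, and microglia-like cells had a UMI in 0.531% of cells.

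**Figure D2:**
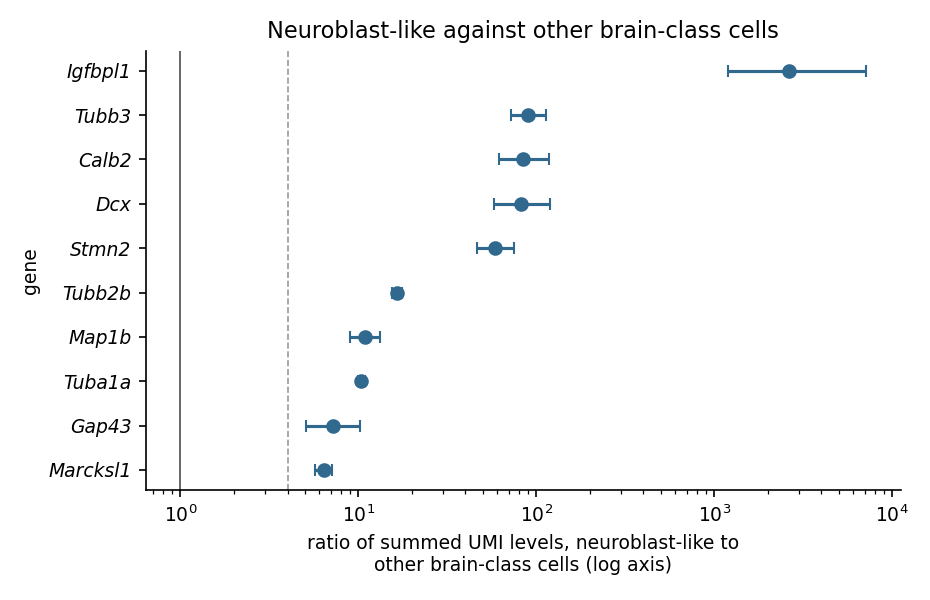
Ratio of each member's level in the 49 young neuroblast-like cells to that in the other 1071 young brain-class cells (log axis), with exact 95% intervals of the ratio of counts. The ratios run from 6.37 for Marcksl1 to 2627 for Igfbpl1.

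Within the neuroblast-like cells, most cells carried most of the members. The median cell had UMIs of 9 of the 10 genes, 10 cells had all 10 and 3 cells had 3 or fewer. Microglia-like cells had a median of 2 and never more than 4. Oligodendrocyte precursor-like cells had a median of 5, and Cajal-Retzius-like cells also 5, with a range of 2 to 7.

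The cells with a UMI of the division genes Mki67 or Top2a had lower levels of several members. There were 7 such cells (median 11075 UMIs) and 42 without (8946). Stmn2 stood at 0.436 (0.0899 to 1.27) in the first and 10.4 in the second, and Calb2 at 0.436 and 7.71. Dcx was at 1.45 (0.697 to 2.67) and 5.82 (5.03 to 6.69), Tubb3 at 3.63 and 16.1, and Tubb2b at 12.9 and 48.7. These pooled levels rest partly on the 2 deepest of the 7 cells, which hold 29150 of their 68847 UMIs and are low in most members. Another of the 7 was the only neuroblast-like cell with Reln (16 UMIs), a Cajal-Retzius marker, and had Tubb3 at 18.8 and Tuba1a at 94.1. A further one was the only cell with Calb1 (3 UMIs), a granule neuron marker. It had no UMI of Dcx, Tubb3, Tubb2b, Stmn2, Gap43, Marcksl1, Igfbpl1 or Calb2. Among the 49 cells it had the highest sum of granule neuron markers (48.1) and the lowest of neuroblast markers (2.83). The neuroblast name is thus less sure for this cell. The part of these cells in the levels was not tested. Without the 2 deepest cells, left out after seeing the data, Dcx stood at 2.52 (1.21 to 4.63), Tubb3 at 6.30, Tubb2b at 20.4 and Stmn2 and Calb2 each at 0.756 (0.156 to 2.21). Those 5 genes and Tuba1a still had intervals below those of the 42 cells. The cells kept include the one with Calb1, which has no UMI of these 5 genes, and its part in these levels was not tested. The intervals leave out the spread between cells, and Tuba1a ran from 5.66 to 94.1 over the 7. Igfbpl1 stood at 13.5 and 28.9, Tuba1a at 39.8 and 90.1, Map1b at 2.32 and 4.93 and Marcksl1 at 6.68 and 11.7. Gap43 stood at 0.871 and 1.33, with overlapping intervals. Without the 2 deepest cells the intervals overlapped for 4 members, Gap43 (1.51), Map1b (3.53), Marcksl1 (9.32) and Igfbpl1 (22.9).

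Re-clustering without the members gave 4 neuroblast-like sub-clusters, described here with no test. Sub-cluster 1 (15 cells, with Hmgb2, Hmgn2 and Top2a among its leading genes) had Calb2 at 0.359, Stmn2 at 2.22 and Tubb2b at 23.6, the lowest of the 4 for each. Sub-cluster 0 (13 cells, with Neurod2 and Sema3c among its leading genes) and sub-cluster 2 (7 cells) had Calb2 at 14.3 and 13.6 and Stmn2 at 8.75 and 10.3. Sub-cluster 3 (14 cells, with Dlx6os1 among its leading genes) had the highest Stmn2, 18.6 (16.1 to 21.5), and Tuba1a, 112, with Calb2 at 6.27. Marcksl1 and Igfbpl1 moved least, from 9.54 to 12.97 and from 22.6 to 32.5. Median depth ran from 4929 UMIs in sub-cluster 0 to 12802 in sub-cluster 1, and its part in these differences was not tested.

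Genes that mark stages of the granule lineage were set beside the members in the same cells. The 27 cells with Bhlhe22, a factor of postmitotic neuroblasts, had Calb2 at 10.3 and Gap43 at 1.92, and the 22 without had 1.52 and 0.393. The 29 cells with Eomes, a factor of intermediate progenitors, had Calb2 at 3.99, against 12.2 in the 20 without. Median depth was 10782 UMIs in the first and 4808.5 in the second, so cells without an Eomes UMI include shallow ones, and it was 9057 and 7346 for the Bhlhe22 split. Only 3 cells had a UMI of Dlx1, a factor of inhibitory interneuron precursors. Those 3 had Stmn2 at 35.3 and Map1b at 10.1 and no Calb2 UMI, while the other 46 had Stmn2 at 7.23, Map1b at 4.17 and Calb2 at 6.85.

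**Figure D3:**
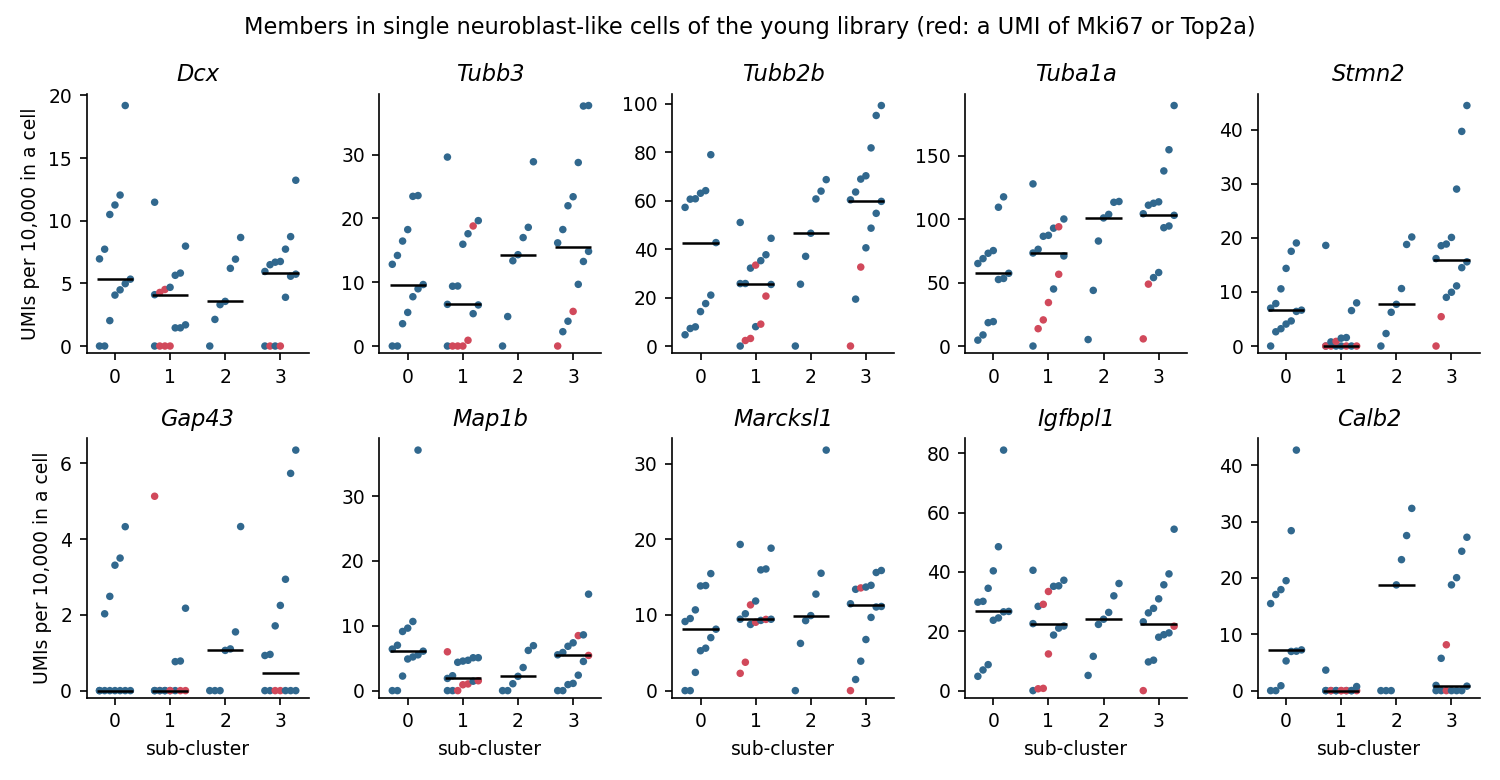
UMIs per 10000 of members in each of the 49 young neuroblast-like cells by sub-cluster, with red points for the 7 cells with a UMI of Mki67 or Top2a and bars for medians. Calb2 and Stmn2 are near 0 in most cells of sub-cluster 1.

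Across the 49 cells, on a log2 scale of UMIs per 10000 plus 1, Tubb2b and Tuba1a were the most alike pair (Pearson r = 0.89, Spearman rho = 0.78). Next by r came Tubb2b and Igfbpl1 (r = 0.80, rho = 0.55), Tubb3 and Tuba1a (r = 0.80, rho = 0.69) and Tubb3 and Tubb2b (r = 0.79, rho = 0.69). By r the least alike were Gap43 and Calb2 (-0.01) and Map1b and Marcksl1 (0.02), and by rho Tuba1a and Calb2 (0.018). These cells share 1 library and differ in depth, and with sparse counts the low values are no finding. Across the 9 named brain classes of at least 10 cells, which leave out the 9 Cajal-Retzius-like cells, the genes most like Dcx were Kcnb2, Rnf165 and Miat (r for Kcnb2 = 1.00), and those most like Calb2 were Miat, Ttc9b and Celf3. For Tubb3 they were Reln, Slc24a5 and Dpysl5, for Stmn2 Islr2, Trim33 and Sema3c, and for Igfbpl1 Prdm8, Mfap4 and Cd79a. In neuroblast-like cells Reln had 16 UMIs, all in 1 cell. Cd79a, a B cell marker, had 1 UMI there, and the 5 B cell-like cells are also left out of the 9 classes. The likeness of Cd79a to Igfbpl1 thus rests on almost no counts. For Gap43 they were Nell2, Nrxn3 and Srrm3, for Tubb2b Gm47283, Mdk and Ehbp1, and for Tuba1a Polr2d, Ube2e3 and Snw1. For Map1b they were Rsrc1, Psmg3 and Psmd9, and for Marcksl1 Rnf138, Fam114a2 and Ythdf2. The classes share 1 library and only 9 points enter, so these likenesses describe the table only.

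Other cytoskeleton genes were described in the same cells, with counts read against the 2.58% of all genes and ratios computed with 0.1 added to each level. Of the other tubulins, 1 of 11 tested was at least 4-fold higher in neuroblast-like cells: Tubb5, a β-tubulin of most cell types, at 31.8, a ratio of 10.5. Tuba1b stood at 3.21, Tubb2a at 3.12, Tubb4b at 2.38, and Tube1 was the second-largest ratio at 1.99. Of 25 microtubule-associated proteins, stathmins and CRMPs (proteins that carry growth-cone guidance signals to tubulin), 6 passed and 1, Map7, was at least 4-fold lower. Stmn1 was at 42.9 (ratio 11.3), Stmn3 at 5.18 (11.8), Dpysl3 at 4.88 (20.5), Dpysl2 at 4.76 (1.61) and Crmp1 at 3.90 (27.9). The median log2 ratios of these lists were 0.32 and 0.59, against 4.50 for the members.

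Of 15 growth cone and neurite membrane genes, 7 passed, with a median log2 ratio of 1.81. Rtn1 stood at 16.1 (ratio 10.5), Basp1 at 15.8 (1.93), Marcks at 15.4 (1.39), Ncam1 at 7.83 (4.25), Cd24a at 4.56 (40.0) and Dbn1, an actin-binding drebrin, at 3.02 (17.6). Basp1 and Marcks, growth-associated membrane proteins like GAP-43, were thus read widely outside neuroblast-like cells. Of 9 actin regulators 2 passed, Tmsb10 at 34.3 (10.7) and Pfn2 at 3.31 (4.14), while Tmsb4x at 91.5 and Actb at 55.4 had ratios of 0.884 and 0.851. Actg1 stood at 26.6. Of 11 microtubule motors 2 passed, Kif5c at 3.21 (14.7) and Kif21a at 2.55 (4.48), with Kif1b at 3.12 and Kif5b at 2.50. None of the 6 neuronal calcium-binding genes tested passed, where Ncald stood at 0.221, Hpca at 0.147, Hpcal1 at 0.123 and Calb1 and Hpcal4 each at 0.0736.

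The low-mitochondrial cells were clustered on their own, and a cluster of 159 young cells (median 5289 UMIs) carried neuron markers. This neuron-like group had Stmn2 at 127 (125 to 130), Gap43 at 51.3 (49.7 to 52.9), Map1b at 41.7 (40.3 to 43.1), Marcksl1 at 30.03 (28.8 to 31.3) and Dcx at 8.25 (7.62 to 8.91). The neuroblast factors Eomes, Neurod2 and Bhlhe22 had no UMI in it, which allows a level of up to 0.0387 each. Against the other low-mitochondrial cells, 5 of the 9 members tested were at least 4-fold higher (Dcx 19.3-fold, Stmn2 21.8, Gap43 32.7, Map1b 6.75 and Tubb2b 5.57), compared with 1.59% of 10109 genes. Tubb3, Tuba1a, Marcksl1 and Igfbpl1 had ratios between 2.44 and 3.69 and were not called. The other cells include 2 unnamed clusters (130 cells) in which 4 neuron markers also passed but whose leading genes kept them from a name. Without them the same 5 members passed, against 1.83% of 9889 genes. The ratios of counts were 61.7 for Dcx, 76.0 for Stmn2, 55.3 for Gap43, 8.86 for Map1b and 6.69 for Tubb2b. Igfbpl1 reached 4.52 (2.89 to 6.93) by counts but 2.68 with 0.1 added to each level, the scale of the calls, and was not called. Calb2 had too few UMIs to test, with 5 in all young low-mitochondrial cells. Of the other lists, 6 of 12 growth cone genes tested passed here, 6 of 24 microtubule-associated proteins, stathmins and CRMPs, 2 of 11 motors, 1 of 9 actin regulators and 0 of 11 tubulins. Basp1 stood at 54.2 and Stmn1 at 60.9, while Stmn3, at 5.18 in neuroblast-like cells, stood at 0.0902.

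The comparison with neuroblast-like cells showed a different mix of the same genes. Of the 10 members, Gap43 (40.99-fold, 31.1 to 55.2), Stmn2 (14.6-fold, 13.1 to 16.2) and Map1b (9.28-fold, 7.99 to 10.8) were at least 4-fold higher in the low-mitochondrial neuron-like cells, where 4.04% of 8195 genes were. Igfbpl1, at 0.412 against 26.3 (ratio 0.0157, 0.0107 to 0.0223), and Calb2, at 0.0387 from 3 UMIs against 6.48 (ratio 0.00597, 0.00122 to 0.0176), were at least 4-fold lower, where 17.4% of genes were. Marcksl1 (2.76-fold), Dcx (1.62), Tubb3 (0.651), Tubb2b (0.507) and Tuba1a (0.451) lay within 4-fold. The median log2 ratio was -0.69 over all genes and 0.04 over the members, and the groups also differ in mitochondrial share and in barcode overlap between tables. The low-mitochondrial neuron-like cells had 4 old cells against 159 young, with Stmn2 at 136 in those 4.

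**Figure D4:**
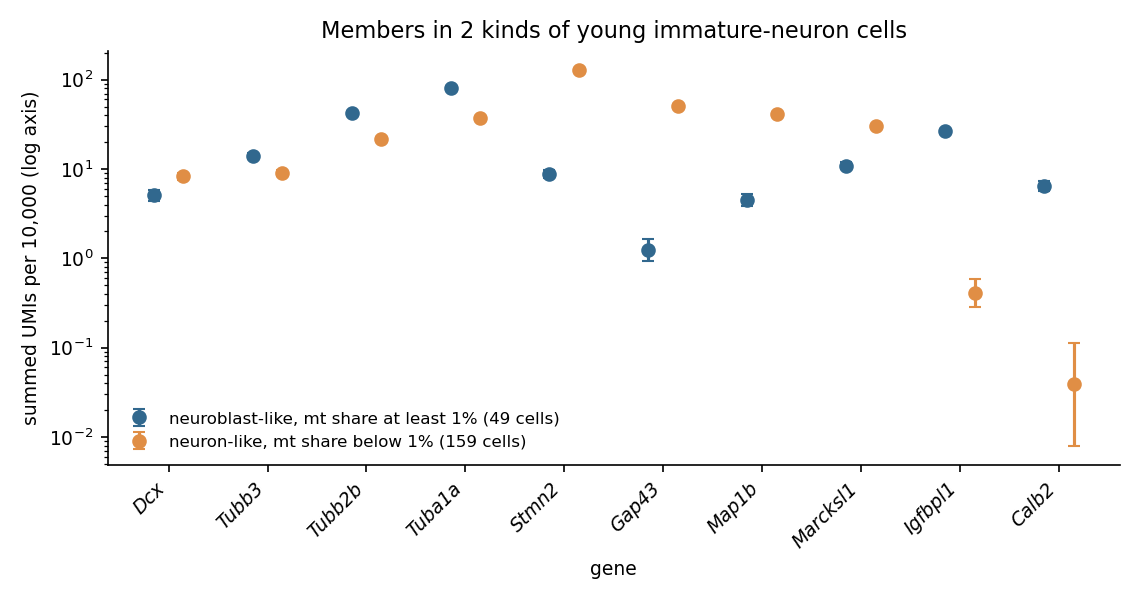
Levels of the members (UMIs per 10000, log axis, exact 95% intervals) in young neuroblast-like cells and in young low-mitochondrial neuron-like cells. Gap43, Stmn2 and Map1b are higher in the low-mitochondrial cells, and Igfbpl1 and Calb2 are higher in neuroblast-like cells.

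Within the neuron-like group 15 cells had no Stmn2 UMI. They had a median of 1212 UMIs and carried at most 1 member each, while the 144 with Stmn2 had a median of 5471 UMIs and 3 to 9 members. The median mitochondrial share was 0.703% in the 15 and 0.0938% in the 144. Of the neuron markers, Snap25, Onecut2 and Ebf1 had no UMI in the 15, where Elavl3 stood at 1.58 and Celf4 at 1.05. The neuron name is thus less sure for the 15. Astrocyte markers summed to 5.89 over the whole neuron-like group, from 0 to 374 in single cells. Without the 15, Stmn2 stood at 130, Gap43 at 52.6, Map1b at 42.7 and Dcx at 8.45. Other low-mitochondrial clusters also held members: an unnamed cluster of 102 cells led by Crabp1, Nnat and Tfap2b, in which 4 neuron markers passed, had Stmn2 at 53.3 and Gap43 at 8.74, and 112 cells with mitosis markers had Tubb3 at 9.92 (9.34 to 10.5) with Stmn2 at 2.35. Tubb3 and Stmn2 thus did not follow the same order over these groups.

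For the old table, the 47 neuroblast-like cells include 46 barcodes of the young 49. Over those 46 the UMIs of Dcx were 200 in the young and 206 in the old table, of Stmn2 356 and 367, of Calb2 264 and 280 and of Gap43 51 and 49. Tuba1a had 3127 and 3622, with more UMIs in the old table in 42 cells and fewer in none. Over all 47 old and 49 young cells, ratios of levels, old to young, ran from 0.966 for Gap43 to 1.10 (1.05 to 1.15) for Tuba1a. Over the 46 shared barcodes they ran from 0.859 (0.568 to 1.30) for Gap43 to 1.04 (0.987 to 1.09) for Tuba1a, and all members except Tuba1a were below 1. The intervals of these ratios treat the tables as independent counts. Shared barcodes are not independent (Gap43 had the same UMIs in 39 of the 46), so the intervals do not give the error of these ratios. No member was 2-fold apart in either set, while over all cells 0.372% of 8339 genes were at least 2-fold higher and 0.3% at least 2-fold lower in the old table. Summed microglia markers in these cells stood at 0.368 in the young and 2.93 in the old table (6 of 8 markers read in the young, Cx3cr1 and Trem2 at 0) and erythroid markers at 0.761 and 5.57. Their part in these ratios was not tested. Because the barcodes are shared, no age difference can be read from these values.

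**Figure D5:**
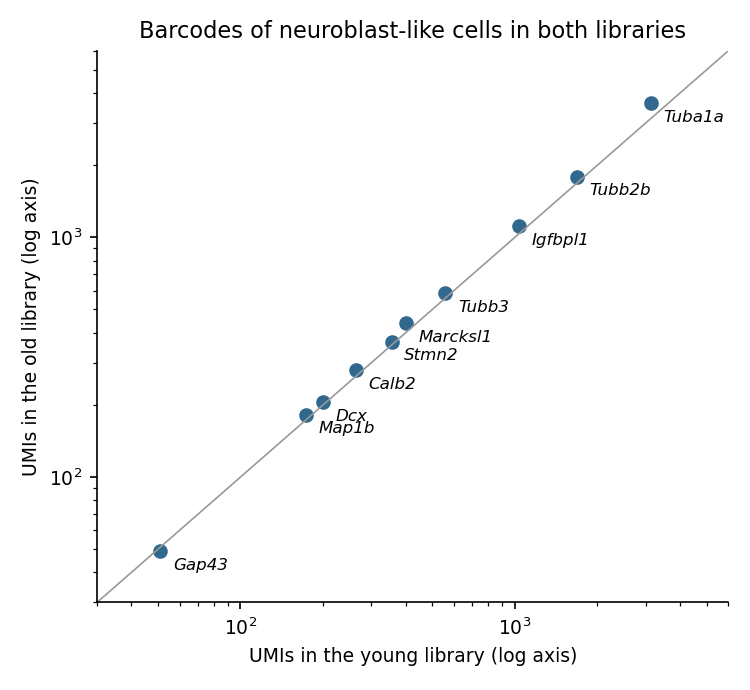
UMIs of the members in the old against the young table over the 46 neuroblast-like barcodes that the tables share. The points follow the line of equal counts closely, with Tuba1a at 3127 young and 3622 old UMIs.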

How the data were processed

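Per the submitters' processing notes, reads were processed with Cell Ranger 5.0.0 on mm10; the annotation is not given in the sources used here. The authors deposited, per cell, the natural log of 1 plus UMIs per 10000; inverted, the values gave whole UMIs. Cells at or above 1% mitochondrial UMIs, and the rest, were each clustered over both libraries with Scanpy 1.11.5 (2000 variable genes, 30 principal components, 15 neighbours, Leiden resolution 1), without the members. A cluster was named from at least 3 markers, each detected in 25% or more of its cells and 4 times or more above the median over the remaining clusters, a rule set after seeing the data. A call was a 4-fold ratio (2-fold between tables) with 0.1 added to levels, over genes with at least 10 UMIs. With 1 library per age no test was made. Intervals are exact 95% Poisson or conditional binomial. The ratio code was tested on simulated data. The members and lists were chosen with earlier results of these data known. Named genes were all members, the 4 highest and 2 largest-ratio genes of each list, and the 3 genes most correlated with each member over classes (at least 50 UMIs, members excluded). A few other genes, such as division and stage genes and Ly6c1, were named after their values were seen.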

Additional observations from a re-analysis of the deposited data

How the results depend on the processing

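No paired test of age was possible, because each age has 1 library and barcodes shared by the tables are not separate samples. The shared barcodes were compared as a description only. The main counts were recomputed at other mitochondrial limits (0.5% and 2%), Leiden resolutions (0.5 and 2), with members among the clustering genes, without doublets, with a pseudocount of 1, as means over cells, from the old table, over shared barcodes and, chosen after seeing the data, without 2 unnamed clusters among the other low-mitochondrial cells. All 44 alternatives of the main counts stayed within 1.5 times, but not all of them could move. They also include runs without the filter on low counts and runs without Cajal-Retzius-like cells. The latter equal the main runs by construction, because no neuroblast-like cell bears that name. Between tables no member passed in the main or any other setting. Where the Cajal-Retzius-like cells joined the neuroblast-like class (resolution 0.5 and the 2% limit), 10 members rather than 8 were highest there and Gap43 moved from 1.25 to 1.88. With a pseudocount of 1, 8 of 10 members passed 4-fold, and Gap43 (log2 0.94) and Map1b (1.96) did not. Counts over all genes moved more: with a pseudocount of 1 the 348 genes higher in neuroblast-like cells became 52, and of those apart from low-mitochondrial neuron-like cells 331 became 75 and 1430 became 90. In the old table, from 4 low-mitochondrial neuron-like cells, Tuba1a (log2 -2.83) joined the members at least 4-fold lower, making 3. The 161 genes higher in low-mitochondrial neuron-like cells became 273 with means over cells and 267 in the old table, and the 1430 became 3789 there. Between tables, 31 and 25 genes became 2 and 1 with a pseudocount of 1, and 25 became 2 over shared barcodes. With 9 Cajal-Retzius-like and 49 neuroblast-like cells, small differences between classes were not detectable.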
